A study of Mus musculus with 6 samples.

Results

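Chromatin regions that were called accessible in 1 library and in no other were examined in haematopoietic stem cells (HSCs), sorted from mouse bone marrow. Of 82993 regions formed by joining the peaks of 6 libraries, 26871 (32.4%) were called in a single library. The members were the joined regions, on chromosomes 1 to 19, X and Y, to which exactly 1 of the 6 peak lists contributed, and each of them was exactly 1 peak. The members were thus chosen by the peak calls themselves, so their number per library, peak width and fold enrichment are given below as a description, whereas their position in the genome was not used to choose them. The assay was ATAC-seq, which marks open DNA by letting a transposase cut it and attach sequencing adapters. About 5000 CD48-CD150+LSK cells went into each library, LSK standing for cells that lack lineage markers and carry Sca-1 and c-Kit. All mice were wild-type C57BL/6J and had received an intraperitoneal injection. Those of 3 libraries had been given tunicamycin at 2 mg/kg, and those of the other 3 libraries DMSO. The animals' age, the time from injection to sorting, and whether each library came from its own animal are not given in the labels, so p-values measure the spread between these libraries only. With peak lists alone, fewer cells with an open site and less open DNA per cell cannot be told apart.

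Tunicamycin blocks N-linked glycosylation, so that misfolded protein builds up in the endoplasmic reticulum (ER) and the unfolded protein response is switched on. In HSCs, strong ER stress is known to limit survival and self-renewal. Open chromatin falls mainly at promoters, many of which are CpG-rich and open in most cell types, and at distal enhancers, which differ more between cell types. A peak caller lists a site only where the local pile-up of fragments passes a threshold, and the absence of a site from a list is not evidence that its chromatin was closed.

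Of the promoters touched by a single-library region, 6 are shown, chosen after their values were seen. They cover the gene starts of the HSC genes Hoxa5, Ndn and Slamf1, of the lymphoid gene Rag1 and of the platelet glycoprotein gene Gp5, which span the range from a CpG-rich to a CpG-free promoter. The last, Scgn, was touched by one of the few regions that ranked high in their own list. Each window runs 5′ to 3′ along the gene from 250 bases before to 50 bases after the start, taken from RefSeq (assembly GRCm38.p6, which is mm10). Capitals mark the bases that the single-library region covered.
Hoxa5 (chr6:52204538-52204837, minus strand, Tunicamycin 2): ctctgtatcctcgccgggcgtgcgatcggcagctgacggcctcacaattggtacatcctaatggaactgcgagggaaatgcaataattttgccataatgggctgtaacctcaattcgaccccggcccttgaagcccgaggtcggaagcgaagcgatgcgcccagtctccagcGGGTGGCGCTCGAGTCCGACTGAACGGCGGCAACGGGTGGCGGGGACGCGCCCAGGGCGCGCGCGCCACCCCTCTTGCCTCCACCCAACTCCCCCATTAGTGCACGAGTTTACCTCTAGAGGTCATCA
Ndn (chr7:62348027-62348326, plus strand, Tunicamycin 2): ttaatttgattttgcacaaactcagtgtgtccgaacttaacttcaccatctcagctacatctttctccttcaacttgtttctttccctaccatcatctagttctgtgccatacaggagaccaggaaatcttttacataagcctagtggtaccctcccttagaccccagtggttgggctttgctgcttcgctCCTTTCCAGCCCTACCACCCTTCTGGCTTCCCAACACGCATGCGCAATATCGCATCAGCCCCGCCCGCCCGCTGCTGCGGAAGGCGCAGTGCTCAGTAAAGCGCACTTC
Slamf1 (chr1:171766882-171767181, plus strand, Tunicamycin 3): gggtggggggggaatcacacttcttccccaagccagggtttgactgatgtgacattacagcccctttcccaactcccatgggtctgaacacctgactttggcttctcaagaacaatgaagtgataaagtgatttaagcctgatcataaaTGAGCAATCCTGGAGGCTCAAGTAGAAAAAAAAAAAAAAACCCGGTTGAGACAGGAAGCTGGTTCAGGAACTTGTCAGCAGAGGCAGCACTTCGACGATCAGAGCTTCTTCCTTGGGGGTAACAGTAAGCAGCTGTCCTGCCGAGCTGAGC
Rag1 (chr2:101649483-101649782, minus strand, Tunicamycin 1): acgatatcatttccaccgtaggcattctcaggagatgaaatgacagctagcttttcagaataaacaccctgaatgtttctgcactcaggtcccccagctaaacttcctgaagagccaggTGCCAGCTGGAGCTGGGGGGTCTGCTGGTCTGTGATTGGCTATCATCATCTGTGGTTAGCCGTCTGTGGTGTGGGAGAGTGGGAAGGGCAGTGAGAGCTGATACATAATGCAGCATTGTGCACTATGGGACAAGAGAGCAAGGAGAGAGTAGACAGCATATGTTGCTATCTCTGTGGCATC
Gp5 (chr16:30310732-30311031, minus strand, DMSO 3): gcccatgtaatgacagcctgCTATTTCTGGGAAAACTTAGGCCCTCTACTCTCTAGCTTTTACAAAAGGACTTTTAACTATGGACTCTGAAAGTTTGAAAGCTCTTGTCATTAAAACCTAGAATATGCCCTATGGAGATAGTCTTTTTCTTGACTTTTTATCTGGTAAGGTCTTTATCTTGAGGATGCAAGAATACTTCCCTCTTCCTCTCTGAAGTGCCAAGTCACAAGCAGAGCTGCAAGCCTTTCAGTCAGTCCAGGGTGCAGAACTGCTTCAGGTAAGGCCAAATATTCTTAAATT
Scgn (chr13:23991165-23991464, minus strand, DMSO 1): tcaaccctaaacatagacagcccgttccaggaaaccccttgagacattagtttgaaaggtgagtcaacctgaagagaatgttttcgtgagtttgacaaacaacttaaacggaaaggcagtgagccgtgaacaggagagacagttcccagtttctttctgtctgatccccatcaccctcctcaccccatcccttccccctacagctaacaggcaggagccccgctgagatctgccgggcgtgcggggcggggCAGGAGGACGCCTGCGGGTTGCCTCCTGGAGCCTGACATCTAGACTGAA
The windows differed widely in CpG content. The observed-to-expected CpG ratio was 1.02 at Hoxa5, a homeobox gene, and 0.623 at Ndn, which encodes necdin, a growth suppressor. It was 0.493 at Scgn, which encodes the calcium-binding protein secretagogin. The ratio was 0.223 at Slamf1, the gene of CD150 by which the cells had been sorted, 0.165 at Rag1, a recombinase gene of lymphocytes, and 0.00 at Gp5. The covered part of the windows was 128 bases at Hoxa5, 109 at Ndn, 151 at Slamf1, 181 at Rag1, 280 at Gp5 and 49 at Scgn. Fold enrichment over background, the authors' own value for each peak, was 5.21 at Hoxa5, 3.74 at Ndn, 4.49 at Slamf1, 4.44 at Rag1, 3.94 at Gp5 and 8.73 at Scgn.

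Peak lists carry no read depth, and list length is the one guide to a library's sensitivity. The lists held 44952, 56865 and 47789 peaks in tunicamycin libraries 1, 2 and 3, against 62478, 38217 and 28501 in DMSO libraries 1, 2 and 3. Of the HSC markers checked, Kit, Procr, Hlf and Mecom each had a region called in all 6 libraries in the gene or within 1 kb of it, Fgd5 reached 5 libraries, Slamf1 2, and Ly6a had no region. Cd48, whose product is absent from the sorted cells' surface, also had regions called in all 6. A region called in all 6 libraries was found at 11911 of 21887 protein-coding genes (54.4%). Lineage genes lay below that share, at 7 of 24 neutrophil and monocyte genes, 9 of 20 erythroid, 9 of 18 megakaryocyte, 10 of 24 lymphoid, 5 of 14 macrophage and 7 of 19 stromal and endothelial genes, against 31 of 40 HSC identity genes, which lay above it. Over the whole Y chromosome, tunicamycin libraries 1, 2 and 3 had 17, 17 and 12 peaks, and DMSO libraries 1, 2 and 3 had 17, 15 and 8. Of the Y-linked genes checked, Kdm5d had no peak in any library. Eif2s3y, Uty and Ddx3y each had a peak in replicates 1 and 2 of both groups. None of these genes had one in tunicamycin library 3 or DMSO library 3. The labels give no sex. Results that rest on these 2 libraries are given with and without them below.

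The single-library regions were spread unevenly over the libraries of both treatments. Tunicamycin libraries 1, 2 and 3 held 2413, 7154 and 2896 of them, and DMSO libraries 1, 2 and 3 held 10292, 1799 and 2317. Tunicamycin 2 and DMSO 1, the libraries with the most peaks in their group, together held 17446 (64.9%). As a share of the regions each library called, single-library regions made up 5.52%, 12.8% and 6.27% of the tunicamycin libraries, against 16.8%, 4.87% and 8.39% of the DMSO libraries. The mean was 8.21% ± 4.02 in tunicamycin libraries and 10.0% ± 6.16 in DMSO libraries (SD, n = 3 each), and the groups overlapped. The difference was −1.83 percentage points, and 4.84 percentage points without DMSO 1. It carries no test, since the calls chose the members.

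The shares changed order once the lists had 1 length. When each list was limited to its strongest peaks by q-value, as many as the shortest list holds, the tunicamycin libraries 1, 2 and 3 had 5.00%, 4.98% and 5.00% single-library regions, and the DMSO libraries 1, 2 and 3 had 5.07%, 6.77% and 16.5%. All 3 tunicamycin libraries then lay below all 3 DMSO libraries, with a difference of −4.45 percentage points, although 4 of the 6 shares lay between 4.98% and 5.07%. DMSO 3, the shortest list, then stood above all others, where DMSO 1 had stood before. In all, 12098 regions were called in a single library under that setting, against 26871 with the lists as deposited.

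**Figure D1:**
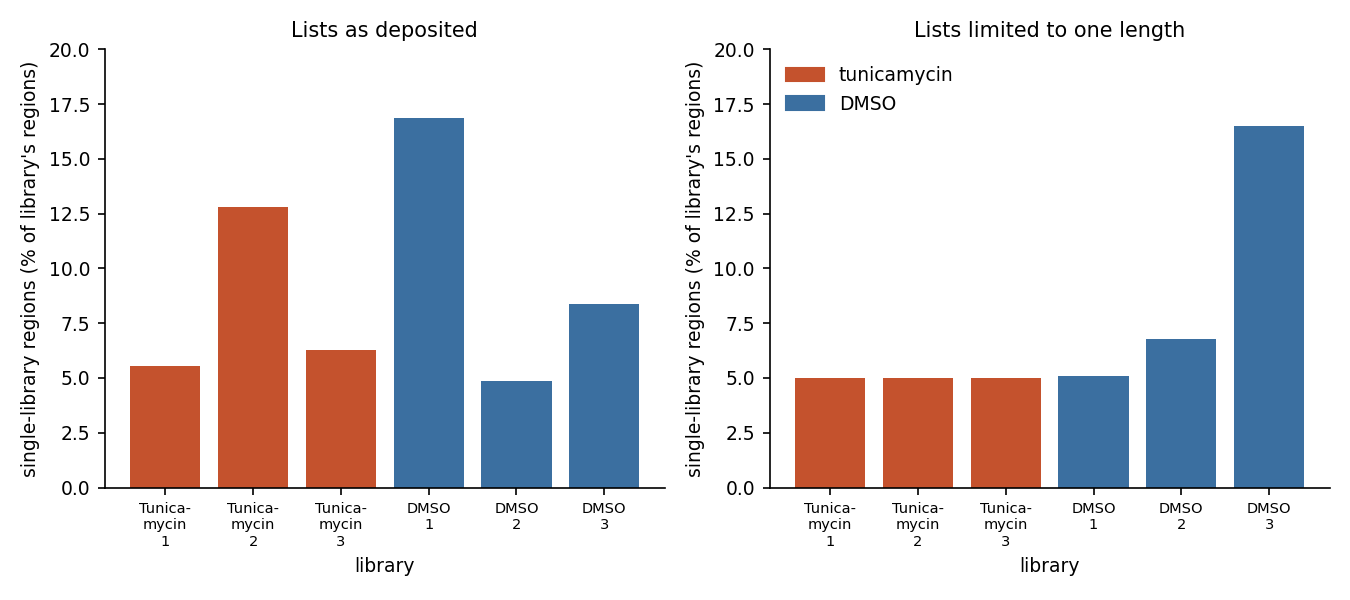
Single-library regions as a percent of each library's called regions, for lists as deposited (left panel) and for lists limited to 1 length (right panel); each bar is 1 library, tunicamycin in orange and DMSO in blue. As deposited, DMSO 1 (16.8%) and Tunicamycin 2 (12.8%) are highest, and at 1 length DMSO 3 (16.5%) is highest.

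Single-library regions were narrow and of low fold enrichment. Their median width was 231, 240 and 234 bp in tunicamycin libraries 1, 2 and 3, and 247, 233 and 264 bp in DMSO libraries 1, 2 and 3, whereas the median over each whole list ran from 348 to 374 bp. No peak was under 200 bp, and 17.4% to 27.1% of a library's single-library regions had exactly that width. Joined regions called in 2 libraries had a median width of 326 bp, and those called in all 6 of 775 bp. Median fold enrichment was 3.85, 4.00 and 4.01 in tunicamycin libraries 1, 2 and 3, against 4.36, 4.07 and 4.01 in DMSO libraries 1, 2 and 3. Over whole lists the median ran from 5.23 to 6.03. Ranked within its own list, the median single-library region stood at percentile 13.6, 17.8 and 15.9 in the tunicamycin libraries and 20.7, 16.5 and 17.7 in the DMSO libraries. Between 90.6% and 97.9% of a library's single-library regions ranked below the middle of their list. Because the calls chose these regions, widths, folds and ranks by fold carry no test.

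**Figure D2:**
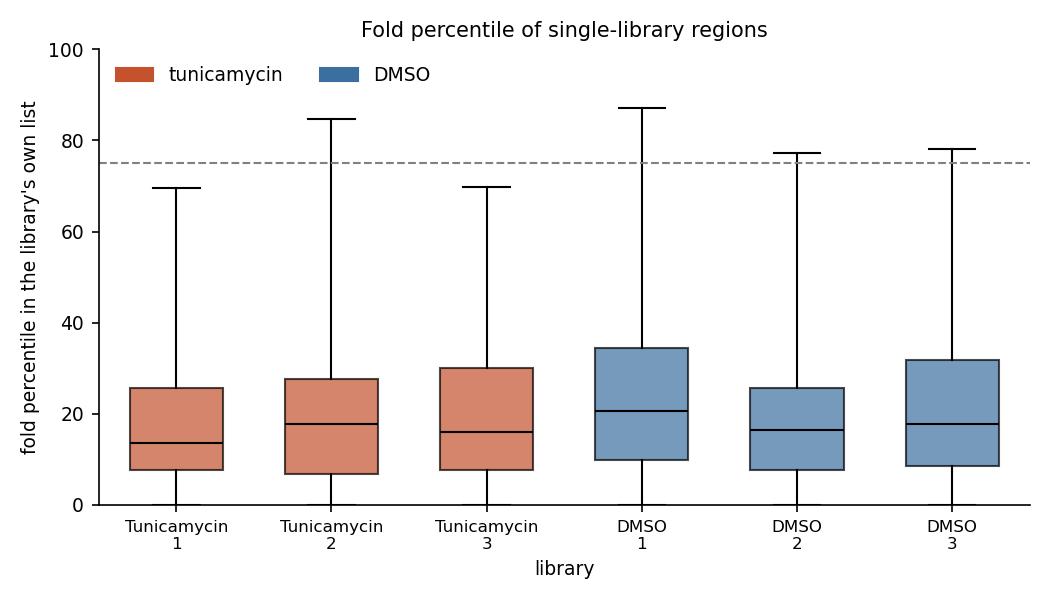
Percentile of each single-library region by fold enrichment within its own library's list, per library; boxes span the quartiles with the median as a line, whiskers reach the lowest and highest region, and the dashed line is the 75th percentile. Medians lie between 13.6 and 20.7, and the whiskers of Tunicamycin 1 and Tunicamycin 3 end below the dashed line.

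Compared with regions open in every library, single-library regions lay less often in genes and far less often at gene starts. Inside a protein-coding gene were 54.2%, 52.9% and 57.4% of the single-library regions of tunicamycin libraries 1, 2 and 3, and 56.4%, 51.5% and 43.5% of those of DMSO libraries 1, 2 and 3. Of the 20810 regions called in all 6 libraries, 73.5% were inside a gene. All 6 libraries lay below that share, by a mean of −20.9 percentage points (SD 4.99; two-sided exact sign-flip permutation test over 6 libraries, p = 0.031, the smallest it can give; adjusted over 7 comparisons p = 0.0365). Within 1 kb of a gene start were 8.25%, 6.18% and 10.5% of the single-library regions of the tunicamycin libraries, and 9.81%, 6.504% and 1.55% of those of the DMSO libraries. Of the regions called in all 6, 45.7% were that close, and the 6 libraries lay below it by a mean of −38.6 percentage points (SD 3.24; exact sign-flip permutation p = 0.031, adjusted p = 0.0365). DMSO 3 had the lowest share in both measures. The regions called in all 6 are 1 set shared by the 6 comparisons, so the test asks only whether the libraries lie to one side of it. Regions called in all 6 were also wider. When all peaks had been cut to 1 width around their summits before joining, the differences were −19.2 percentage points inside genes and −35.9 near gene starts (exact sign-flip permutation p = 0.031 for each). Joined windows can still be wider than 1 window, so the widths of the regions were not made equal.

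Regions called in 2 to 5 libraries stood between these extremes. Each of these regions enters the comparison of every library that called it, so the 6 comparisons share regions and are not independent. In each library's own regions of that kind, 58.2%, 57.4% and 58.9% were inside a gene in tunicamycin libraries 1, 2 and 3, and 57.8%, 58.5% and 54.8% in DMSO libraries 1, 2 and 3. The single-library regions were lower in 6 of 6 libraries, by a mean of −4.97 percentage points (exact sign-flip permutation p = 0.031, adjusted p = 0.0365). Keeping peaks whose q-value was 1e-05 or lower gave −5.14 percentage points with p = 0.0625 in the same exact test, and leaving out DMSO 1 gave −4.41 with p = 0.125, above the 0.0625 that 5 libraries can give. Near gene starts were 14.4%, 12.7% and 14.0% of these regions in the tunicamycin libraries and 13.5%, 14.4% and 9.55% in the DMSO libraries. The single-library regions were again lower in 6 of 6 libraries, by a mean of −5.95 percentage points (exact sign-flip permutation p = 0.031, adjusted p = 0.0365). With DMSO 3 left out and the other lists joined anew, that mean was −3.86 percentage points. An exact sign-flip p over 5 libraries cannot be under 0.0625. By number of calling libraries from 1 to 6, the share within 1 kb of a gene start was 7.85%, 9.81%, 11.3%, 12.3%, 17.4% and 45.7%. The step from 5 to 6 libraries was larger than all the steps before it together.

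**Figure D3:**
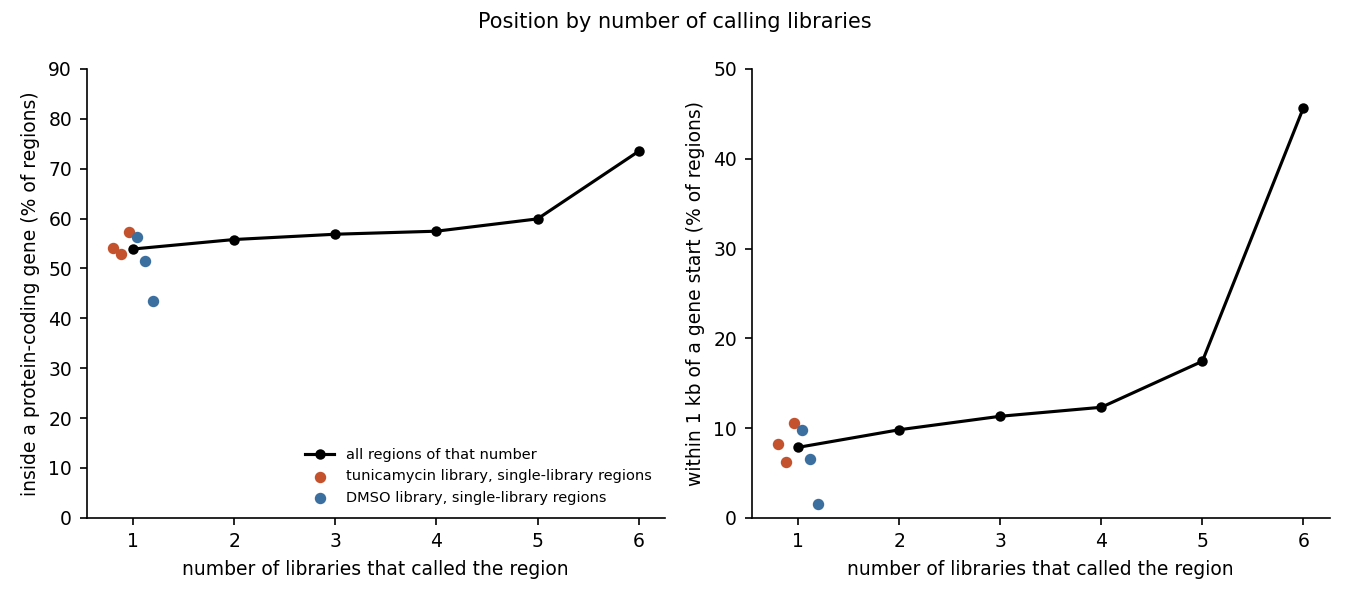
Percent of regions inside a protein-coding gene (left panel) and within 1 kb of a gene start (right panel) against the number of libraries that called them; black points are all regions of that number, and coloured points are the single-library regions of each tunicamycin (orange) and DMSO (blue) library, spread sideways for legibility. The share near gene starts is 7.85% at 1 library and 45.7% at 6 libraries.

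Between treatments, the position of the single-library regions did not differ beyond the spread of the libraries. The share inside genes averaged 54.8% ± 2.33 in tunicamycin libraries and 50.4% ± 6.51 in DMSO libraries (SD, n = 3 each; difference 4.37 percentage points, two-sided exact permutation test over the 20 splits, p = 0.40, adjusted over 4 group comparisons p = 0.667). The share within 1 kb of a gene start averaged 8.32% ± 2.18 in tunicamycin libraries and 5.96% ± 4.16 in DMSO libraries (SD, n = 3 each; difference 2.36 percentage points, two-sided exact permutation p = 0.50, adjusted p = 0.667). Replicate 3 of each group had no peak at Eif2s3y, Uty or Ddx3y. When it was left out of both groups and the other lists were joined anew, these differences were −0.409 and −0.929 percentage points (exact permutation p = 1.00 for each). With 3 libraries a group, the smallest p such a test can give is 0.10.

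Single-library regions also lay farther from the sites open in every library than regions called in 2 to 5 libraries did. Their median distance to the nearest region called in all 6 was 27.7, 29.1 and 20.7 kb in tunicamycin libraries 1, 2 and 3, and 22.9, 31.9 and 63.4 kb in DMSO libraries 1, 2 and 3. For regions called in 2 to 5 libraries, which are again shared between the comparisons, it was 17.8, 18.5 and 17.8 kb in the tunicamycin libraries. In the DMSO libraries it was 18.4, 17.6 and 18.98 kb. The distance was greater for single-library regions in 6 of 6 libraries, by a mean of 14.4 kb (SD 15.3 kb; two-sided exact sign-flip permutation p = 0.031, adjusted p = 0.0365). When DMSO 3 was left out and the other lists were joined anew, both sets of regions changed. The mean was then 6.07 kb, greater in 5 of 5 libraries (exact sign-flip permutation p = 0.0625, the smallest possible). With replicate 3 of both groups left out it was 5.95 kb (p = 0.125 in the same exact test, the smallest that 4 libraries can give). With lists of 1 length it was 7.41 kb (exact sign-flip permutation p = 0.031).

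**Figure D4:**
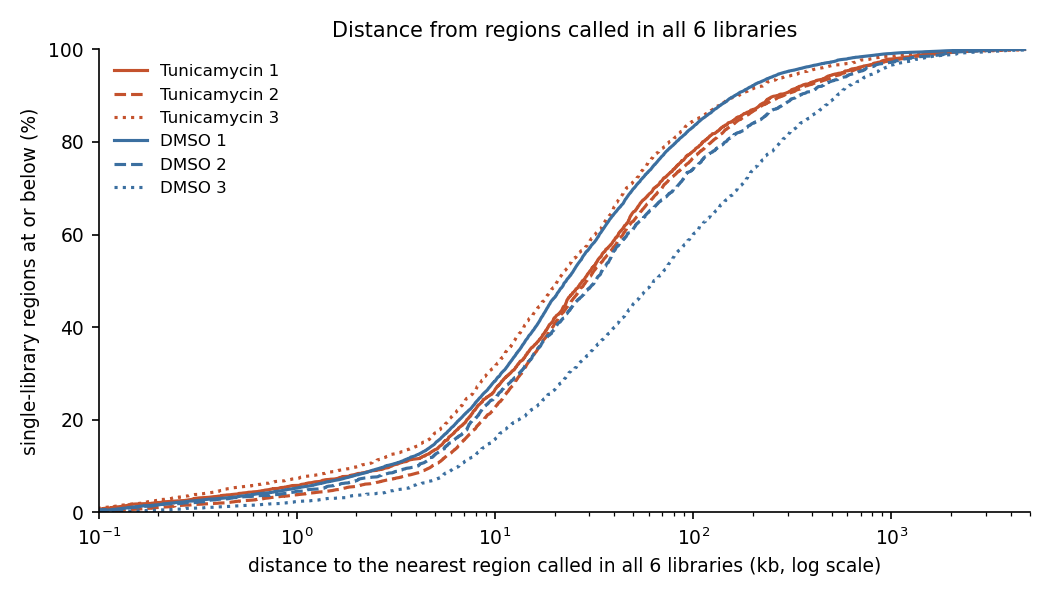
Cumulative percent of single-library regions against their distance to the nearest region called in all 6 libraries (kb, log scale), 1 line per library, tunicamycin in orange and DMSO in blue. DMSO 3, with a median of 63.4 kb, lies to the right of the other 5 libraries, whose medians run from 20.7 to 31.9 kb.

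Few single-library regions lay right beside a joined region that another library called. The same library may have called that joined region as well. Such a region lay within 200 bp for 8.58%, 5.35% and 9.77% of single-library regions in tunicamycin libraries 1, 2 and 3. In DMSO libraries 1, 2 and 3 it did so for 6.03%, 7.78% and 4.36%. Within 1 kb the share ran from 12.6% in DMSO 3 to 27.9% in Tunicamycin 3. Most gaps between successive single-library regions of the same library were longer than 10 kb. Gaps of 10 kb or less made up 1.80%, 4.85% and 2.96% of such gaps in the tunicamycin libraries and 9.51%, 1.85% and 2.13% in the DMSO libraries. These shares of gaps were highest in DMSO 1 and Tunicamycin 2, which held the most single-library regions. Regions over 100 kb from any protein-coding gene made up 11.0%, 12.1% and 8.01% in the tunicamycin libraries and 7.77%, 13.0% and 19.8% in the DMSO libraries, or 2853 in all.

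Very few single-library regions were strong in their own list. By definition 25% of a list's peaks reach its 75th percentile of fold enrichment, and 42 of the 26871 single-library regions did so (0.156%, exact Clopper-Pearson 95% interval 0.113% to 0.211%, which covers counting error only). Tunicamycin libraries 1, 2 and 3 held 0, 10 and 0 of them, and DMSO libraries 1, 2 and 3 held 29, 1 and 2. A count of 0, read as at most 3 regions, allows a share of up to 0.124% in Tunicamycin 1 and 0.104% in Tunicamycin 3, and the two-sided exact 95% interval reaches 0.153% and 0.127%. These intervals take regions as independent draws, though Tunicamycin 2 and DMSO 1 held 39 of the 42. They do not measure the spread between libraries. The mean share was 0.0466% ± 0.0807 in tunicamycin libraries and 0.141% ± 0.123 in DMSO libraries (SD, n = 3 each; difference −0.0946 percentage points). Among regions called in 2, 3, 4, 5 and 6 libraries, 1.51%, 5.44%, 15.2%, 34.7% and 72.0% held such a peak. A region of more libraries holds more peaks, any 1 of which counts, so part of this rise is by construction. No single-library region reached the 75th percentile when peaks were ranked by q-value in place of fold, and none reached the 90th percentile of fold. Leaving out Tunicamycin 2 raised the number to 97, and leaving out Tunicamycin 3 raised it to 77.

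Just inside and just outside the threshold the folds were close. In Tunicamycin 2 the weakest region at or above the 75th percentile had a fold of 7.67 and the strongest other single-library region 7.47. In DMSO 1 these values were 8.67 and 8.39, in DMSO 2 7.60 and 6.92, and in DMSO 3 7.18 and 6.75. The strongest single-library region of Tunicamycin 1 reached 6.94, and that of Tunicamycin 3 reached 7.14, both under their lists' 75th percentiles of 7.52 and 7.72.

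Of the 42 strong regions, 14 lay inside a gene, where 53.9% of all single-library regions did. Within 1 kb of a gene start were 2 of them, both in DMSO 1, beside 7.85% of all single-library regions. These were next to Usp44, the gene of a histone deubiquitinase, at 0.815 kb, and Scgn, at 0.001 kb on the gene's side of the start. Per library, 0.00% of the strong regions of Tunicamycin 2 were near a gene start, against 6.19% of its other single-library regions. The shares were 6.90% against 9.82% in DMSO 1, 0.00% against 6.51% in DMSO 2 and 0.00% against 1.56% in DMSO 3. The mean difference of −4.29 percentage points could not reach 0.05 with 4 libraries (two-sided exact sign-flip permutation p = 0.125, the smallest possible). When each called interval was replaced by its summit with 250 bp on either side, the difference was 20.1 percentage points (exact sign-flip permutation p = 0.31). The strong regions then numbered 0, 11 and 1 in tunicamycin libraries 1, 2 and 3, and 31, 2 and 4 in the DMSO libraries. Members and contributing libraries thus changed along with the interval, and some library shares rested on very few regions. With lists of 1 length, where all 6 libraries held strong regions, the difference was −9.72 percentage points (exact sign-flip permutation p = 0.031). The strong regions then numbered 1, 9 and 2 in tunicamycin libraries 1, 2 and 3, and 9, 1 and 11 in the DMSO libraries. With so few, all libraries can lie to one side without a difference in position, so no conclusion is drawn.

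Among single-library regions with a gene within 100 kb, the 3 of highest rank by fold in each library are named. Those of the tunicamycin libraries lay inside a gene in 6 of 9 cases. In Tunicamycin 2 the top region had a fold of 9.07 and lay inside Nacc2, which encodes a transcriptional repressor (chr2:26061030-26061330). The next, with a fold of 8.24, lay inside Cd9, the gene of a tetraspanin abundant on megakaryocytes and platelets (chr6:125461254-125461662). It was 38.4 kb from the nearest region called in all 6 libraries, and Cd9 was the single gene of any list next to one of the 42 strong regions. The third lay inside Ranbp3, a cofactor of nuclear export, with a fold of 7.93. In Tunicamycin 1 the top regions had folds of 6.94 inside Drc1, a gene of the ciliary axoneme, 6.94 at 29.2 kb from Zfp24, and 6.51 inside Pcmtd1. In Tunicamycin 3 they had folds of 7.10 inside Mipep, the gene of a mitochondrial peptidase, 7.10 at 51.5 kb from Nol4, and 6.79 at 4.94 kb from Actl9.

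Of the DMSO libraries' regions chosen in the same way, 3 of 9 lay inside a gene. In DMSO 1 the top region of all, with a fold of 10.4 at percentile 87.1, lay 3.45 kb from Gm39701 (chr1:170953214-170953536). It was followed by a region inside Samhd1, which encodes an enzyme that degrades deoxynucleotides, with a fold of 9.74, and by one inside Arhgef6 on the X chromosome, with a fold of 9.40. In DMSO 2 they lay 10.8 kb from Mup5, inside Nalcn, the gene of a sodium leak channel, and 41.3 kb from Btg1, an antiproliferative gene, with folds of 7.60, 6.92 and 6.61. Mup5 belongs to a cluster of near-identical major urinary protein genes, so the placement of reads there is uncertain. In DMSO 3 they lay 27.2 kb from Wdr11, 32.6 kb from Dact2 and 3.03 kb from Tmco5, with folds of 7.26, 6.75 and 6.68. The difference in position between the treatments' named regions was not tested.

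Single-library regions were found near many genes. Of 21887 protein-coding genes, 10073 (46%) were the nearest gene, within 100 kb, of at least 1 of them, and lists are read against that share. For the ER stress response list, the sensors, transcription factors and chaperones of the unfolded protein response, it was 17 of 40 genes (42.5%). For the integrated stress response list, the translational arm and its amino acid genes, it was 14 of 32 (43.8%). Both were close to the share over all genes. HSC identity genes reached 32 of 40 (80%), and housekeeping genes 5 of 20 (25%). Macrophage genes stood at 10 of 14, stromal and endothelial genes at 13 of 19, neutrophil and monocyte genes and lymphoid genes at 16 of 24 each, cell cycle genes at 22 of 36, erythroid genes at 11 of 20, apoptosis and p53 target genes at 13 of 25, AP-1 and immediate early genes at 10 of 20, and megakaryocyte genes at 9 of 18. Gene length also differed between the lists, with a median of 24.0 kb for HSC identity genes, 17.8 kb for ER stress genes, 9.27 kb for housekeeping genes, 3.89 kb for neutrophil and monocyte genes and 17.2 kb over all genes, and its part in the counts was not tested.

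**Figure D5:**
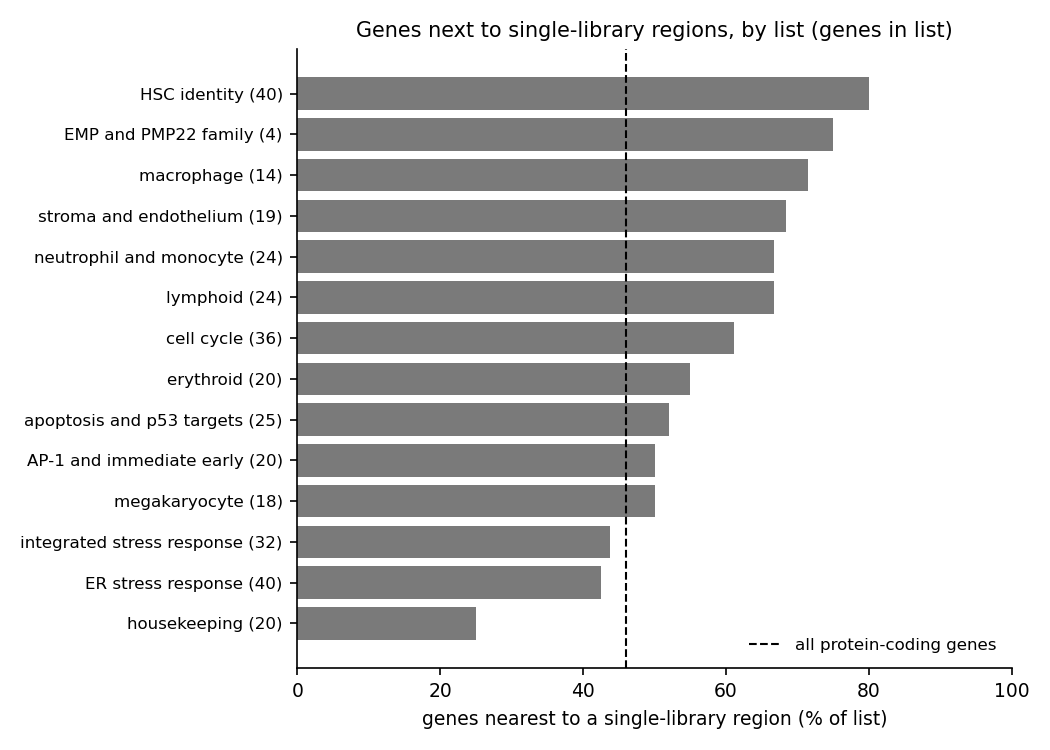
Percent of each list's genes that were the nearest protein-coding gene, within 100 kb, of at least 1 single-library region, with the number of genes of the list in brackets; the dashed line is the 46% over all 21887 genes. HSC identity genes (80%) are at the top and housekeeping genes (25%) at the bottom.

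At the stress genes themselves, single-library regions were a minor share of what was open. Of the regions in or within 1 kb of ER stress genes, 15 of 92 (16.3%) were single-library, and at integrated stress response genes 9 of 69 (13.0%). Over all genes it was 15652 of 55331 (28.3%), at HSC identity genes 111 of 335 (33.1%) and at housekeeping genes 4 of 39 (10.3%). A region called in all 6 libraries was present at 39 of 40 ER stress genes and 25 of 32 integrated stress response genes, beside the 54.4% over all genes. Among sensors, Eif2ak3, which encodes the kinase PERK, had 1 single-library region inside the gene in Tunicamycin 2, with a fold of 5.21. Ern1, the gene of IRE1, was nearest to 2 such regions, and Atf6 to 2. Among transcription factors, Xbp1 was nearest to 2, with folds of 4.08 in Tunicamycin 2 and 2.80 in DMSO 1. Among folding factors, Ero1b, an oxidase of the ER, had the highest percentile of the list, with a fold of 6.22 inside the gene in Tunicamycin 1. Dnajb9, an ER co-chaperone, was nearest to 3, with folds of 3.87 in Tunicamycin 3 and 6.72 and 5.41 in DMSO 1.

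Amino acid genes of the integrated stress response held regions from both treatments. Slc7a1, a transporter of cationic amino acids, was nearest to 3, all in Tunicamycin 1, with folds of 5.63, 3.70 and 3.53. Asns, asparagine synthetase, was nearest to 1 in DMSO 1, with a fold of 6.38 at 39.9 kb. Over the ER stress list, tunicamycin libraries 1, 2 and 3 held 3, 7 and 4 of the 30 nearest regions, and DMSO libraries 1, 2 and 3 held 11, 3 and 2. Over the integrated stress response list the tunicamycin libraries held 3, 9 and 3 of 29, and the DMSO libraries 11, 3 and 0. In both lists the most came from DMSO 1, followed by Tunicamycin 2, the order of the libraries over all single-library regions.

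HSC identity genes were next to 153 single-library regions, 9, 31 and 10 from tunicamycin libraries 1, 2 and 3 and 79, 16 and 8 from DMSO libraries 1, 2 and 3. DMSO 1 thus held 79 of 153, where it held 9492 of the 24018 over all genes. The genes with the most were the transcription factor genes Prdm16 (16), Etv6 (15), Erg (11) and Mecom (10), followed by Fli1, Hmga2 and Mllt3 (8 each). None of the 153 reached the 75th percentile of its list. The strongest by percentile lay 31.9 kb from Etv6 with a fold of 5.61 in Tunicamycin 2, and 18.7 kb from Erg with a fold of 6.07 in DMSO 1. Over all genes, the most single-library regions were nearest to long ones: Nav2 (27), a gene of 651 kb, Foxp1 (26), a gene of 597 kb, and Wwox (23), a gene of 913 kb. Arhgef10l, with 19, had no region called in all 6 libraries.

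Emp1 (chr6:135362550-135383173), the gene named in the title of the study, encodes a membrane protein of the epithelial membrane protein and PMP22 family. It was nearest to 8 single-library regions, 2 from Tunicamycin 2 and 6 from the DMSO libraries, 3 of them in DMSO 1, 1 in DMSO 2 and 2 in DMSO 3. Their folds were 4.05 and 3.74 in Tunicamycin 2, against 4.19, 5.37 and 3.46 in DMSO 1, 4.40 in DMSO 2 and 4.63 and 4.10 in DMSO 3. All 8 ranked in the lower part of their lists, at percentiles from 5.11 to 40.4. Inside the gene, a region of DMSO 3 (chr6:135369070-135369396) and one of DMSO 1 (chr6:135369503-135369702) lay 106 bp apart, each counted as single-library because they did not overlap. Beyond the end of the gene, a region of DMSO 1 and one of DMSO 3 lay 154 bp apart. Emp1 itself had 2 regions called in all 6 libraries. Emp2 had 4 single-library regions inside the gene, 2 in Tunicamycin 3, 1 in DMSO 1 and 1 in DMSO 3, Pmp22 was nearest to 1 in Tunicamycin 2 and 1 in Tunicamycin 3, and Emp3 had none.

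For some genes a single-library region was all that was called. Of 21887 protein-coding genes, 953 (4.35%) had regions in the gene or within 1 kb of it that were all single-library, and for 751 of them all came from 1 library. That library was tunicamycin library 1, 2 or 3 for 66, 192 and 78 genes, and DMSO library 1, 2 or 3 for 326, 39 and 50. Of the HSC identity list these were 3 of 40 genes. They were Hoxa5 and Ndn, with the promoter regions in Tunicamycin 2 shown above, and Tek, the gene of the angiopoietin receptor TIE2, with 2 regions in DMSO 1. At Tek these had folds of 5.73, at 0.085 kb from the gene start, and 4.36. Among lineage genes they were S100a9, a calcium-binding protein gene of neutrophils, the red cell antigen genes Rhag and Kel, all 3 in Tunicamycin 2, Rag1 and Vcam1 in Tunicamycin 1, and Emcn, an endothelial gene, in DMSO 1. No gene of the ER stress, integrated stress response, EMP and PMP22 family, megakaryocyte, cell cycle, apoptosis and p53 target, AP-1 and immediate early or housekeeping lists was among them. These lists held 4 to 40 genes, of which the 4.35% over all genes would be few or none. Nothing is therefore concluded from their absence.

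Promoters under single-library regions were poorer in CpG than those open in every library. Of 21263 promoter windows with a RefSeq sequence, from 17492 genes, 567 (2.67%) were touched by a single-library region and by no region of more libraries, 2293 by a region called in 2 to 5, 9290 by one called in all 6, and 9113 by none. The median observed-to-expected CpG ratio was 0.567 in the first class, 0.658 in the second, 0.801 in the third and 0.215 in the last, and 0.567 over all windows, the value of the first class. Median GC content was 60.3%, 61.0%, 62.0% and 48.3% in the same order. By library, the ratio was 0.657 (50 windows), 0.499 (97) and 0.504 (91) in tunicamycin libraries 1, 2 and 3, and 0.583 (309), 0.356 (18) and 0.189 (2) in DMSO libraries 1, 2 and 3. All 6 were below the value of promoters open in every library, by a mean of −0.336 (SD 0.168; two-sided exact sign-flip permutation p = 0.031, adjusted p = 0.0365). Without DMSO 1 the mean was −0.230, with lists of 1 length it was −0.185, and the value of DMSO 3 rests on 2 windows.

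The same windows were searched for 8 short motifs on both strands, as a description. The letters TGANTCA, a form of the AP-1 site, were found in 8.99% of windows under single-library regions, 3.84% of those open in all 6 libraries, 10.2% of those with no region and 6.99% of all windows. The letters GGGCGGG, a form of the SP and KLF site, were found in 39.5%, 52.0%, 12.7% and 33.9% of the same classes. The letters GCATGCG, for NRF1, were found in 2.65%, 7.38%, 1.72% and 4.44%. In each case the single-library class lay between promoters open in every library and promoters with no region. The ETS letters AGGAAGT were found in 8.64%, 8.78%, 8.95% and 9.07% of the same classes. The RUNX letters TGTGGTT were found in 2.65%, 3.55%, 6.23% and 4.71%, the GATA letters AGATAAG in 1.94%, 1.52%, 4.12% and 2.64%, and the CTCF motif in 2.65%, 2.96%, 1.61% and 2.34%. The letters TGATGNAA, for ATF4 with CHOP, the pair at the end of the PERK arm, were found in 3.17%, 1.93%, 5.73% and 3.603%.

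On the X chromosome the libraries differed. Single-library regions there numbered 34, 105 and 87 in tunicamycin libraries 1, 2 and 3, and 186, 8 and 51 in DMSO libraries 1, 2 and 3. As a share of a library's single-library regions this was 1.41%, 1.47% and 3.00% in the tunicamycin libraries and 1.81%, 0.445% and 2.201% in the DMSO libraries. Over all regions a library called, the X share ran from 1.51% to 1.84%. The highest share in each group was that of replicate 3, the library of each group without a peak at Eif2s3y, Uty or Ddx3y. On the Y chromosome, Tunicamycin 3 and DMSO 3 held 2 single-library regions each, and the other libraries 0. Xist, the X-linked RNA of X inactivation, had peaks in 5 of 6 libraries, DMSO 2 having none. The part of sex in these shares was not tested.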

How the data were processed

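ATAC-seq peak lists of 6 libraries of sorted mouse HSCs were used, 3 after tunicamycin and 3 after DMSO, as the labels' treatment field states. Listed in the submitters' processing notes, with no role or setting, are MACS2, Picard, featureCounts, Bowtie2 2.2.9 and Trim Galore 0.4.4, and the build mm10. How reads were filtered or shifted and where the calling threshold lay is not stated there. Per peak, each deposited list gives the interval, the summit's offset in bases, the display score, the ratio (fold enrichment) to background, and the p-value and q-value as −log10. The highest deposited q-value ran from 0.0482 to 0.05 over the lists. These values belong to each peak and served only to rank or filter peaks within a list.

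Only chromosomes 1 to 19, X and Y were used, which left out 109 to 138 peaks per list, and peaks were joined where they overlapped by at least 1 bp. Positions were set against 21887 protein-coding genes of RefSeq, GRCm38.p6. Gene starts were those listed with strand for 17492 genes, and either gene end for the others. Exons and introns were not distinguished. Distances ran from edge to edge. All 336 entries of the 14 gene lists matched a gene.

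The library was the replicate. Treatments (position only, since calls and fold chose or singled out the members) were set against each other with a two-sided exact permutation test over 20 splits, and single-library regions against other regions with two-sided exact sign-flip permutation tests over libraries, with Benjamini-Hochberg adjustment over 4 comparisons (2 of them, on calls and fold, given without a test) and 7; the comparisons of promoter CpG and with regions called in 2 to 5 libraries (3 of the 7) were added after the data were seen. Shares of counts have exact Clopper-Pearson 95% intervals, which cover counting error only. Read depth is unknown. The members and gene lists were chosen with earlier results of these data known.

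Named were, per library, the 3 single-library regions of highest percentile by fold with a gene within 100 kb, and list genes next to a region at or above the 75th percentile. The other genes named within lists, the genes with most regions and the printed promoters were chosen after their values were seen. Alternatives were a q-value of at most 1e-05, lists of 1 length, peaks joined up to 200 bp apart, windows of 250 bp to each side of summits, autosomes only, a distance of 3 kb, other gene starts, ranking by q-value, the 90th percentile, pairing of same-numbered libraries, and leaving out each library in turn. Where libraries were left out, the remaining lists were joined anew. Single-library regions and regions called in every library were then redefined from those lists. Motifs and repeats of the regions themselves were not analysed here, as this needs genome sequence. The software was Python 3.11.15 with SciPy 1.17.1, pandas 2.3.3, NumPy 2.4.6 and matplotlib 3.10.9, and the joining, distances and tests were checked on simulated data.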

Additional observations from a re-analysis of the deposited data

How the results depend on the processing

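Single-library regions numbered 17869 with peaks of a q-value of at most 1e-05 and 12098 with lists of 1 length, and 24540 to 27573 when a library was left out. Those at or above the 75th percentile numbered 44 to 97 when a library was left out, 83 without replicate 3 of both groups, and 0 when ranked by q-value or at the 90th percentile.

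With 5 libraries a sign-flip p is at least 0.0625, so each of the 6 called comparisons lost its call by construction when a library was left out, and its mean kept its sign. The p was at that floor except inside genes against regions called in 2 to 5 libraries without DMSO 1 (exact p = 0.125), where not all libraries lay to one side; without replicate 3 of both groups it was 0.25 there, against a floor of 0.125. Each time the remaining lists were joined anew, which redefined both sets of regions compared. Against regions called in all remaining libraries, differences inside genes ran from −21.0 to −16.2 percentage points. Near gene starts they ran from −38.4 to −30.9, and for promoter CpG from −0.344 to −0.230. Against regions called in 2 or more but not all remaining libraries, differences in distance ran from 6.07 to 15.2 kb. Inside genes they ran from −5.25 to −3.51, and near gene starts from −6.16 to −3.86. Without replicate 3 of both groups these values were −15.7, −30.0, −0.237, 5.95 kb, −3.40 and −3.96. With q-values of at most 1e-05, the −5.14 percentage points inside genes against regions called in 2 to 5 libraries had an exact sign-flip p of 0.0625. For the strong regions (75th percentile and above) against other single-library regions near gene starts, lists of 1 length gave −9.72 (exact sign-flip p = 0.031), windows around summits 20.1, and leaving out a library −7.65 to −4.64. Lists of 1 length and windows around summits left as few as 1 strong region in a library, so no conclusion is drawn from them.

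Tests between treatments cannot give a p under 0.10 with 3 libraries a group, so calls could not change. Leaving out a library gave −5.14 to 4.84 percentage points for the share of single-library regions (4.84 without DMSO 1), 0.942 to 7.15 inside genes, 0.368 to 5.07 near gene starts and −0.169 to 0.0898 at the 75th percentile (0.0898 without DMSO 1). Ranking by q-value or using the 90th percentile gave 0 in the last. Without replicate 3 of both groups the values inside genes and near gene starts were −0.409 and −0.929. Apart from those named as construction, the causes were not tested. Over regions, the calls of same-numbered libraries showed correlations of 0.0330, 0.00340 and −0.0290. These correlations cannot exclude a pairing by number, and replicate 3 of both groups lacked peaks at the Y-linked genes Eif2s3y, Uty and Ddx3y. With the replicate block the differences were the same by construction, −1.83, 4.37, 2.36 and −0.0946. The exact sign-flip p-values were then 0.75 inside genes and 1.00 near gene starts.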

Other observations

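The antigen receptor loci, which are rearranged in lymphocytes, held single-library regions at a share above the 32.4% over all regions. In the span of the immunoglobulin heavy chain segments on chromosome 12, 44 of 111 regions (39.6%) were single-library, 3, 17 and 3 in tunicamycin libraries 1, 2 and 3 and 14, 4 and 3 in DMSO libraries 1, 2 and 3. Of the T-cell receptor loci, 32 of 73 regions (43.8%) of the alpha and delta span and 18 of 31 (58.1%) of the beta span were single-library, and at the immunoglobulin kappa span 6 of 12 (50.0%). The spans were chosen after their values were seen, and the shares were not tested. The variable segments named below were not among the protein-coding genes used. Over the genome, 53.9% of single-library regions were inside such a gene, against 73.5% of regions called in all 6. The 32.4% makes no allowance for this, so it is not a share over regions of like position. Of the 42 regions at or above the 75th percentile of their list, 2 lay in the heavy chain span. One overlapped the variable segment Ighv1-62-2 in DMSO 1 with a fold of 8.73 (chr12:115446151-115446440), and one lay 7.55 kb from Ighv8-12 in Tunicamycin 2 with a fold of 8.10 (chr12:115655798-115656109). Variable segments form a family of near-identical copies, so the placement of reads there is uncertain.

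The fold enrichments of single-library regions fell in part on a ladder. In tunicamycin libraries 1, 2 and 3, 45.3%, 60.2% and 35.7% of them were whole multiples, within 0.001, of a step of 0.296, 0.311 and 0.309, and in DMSO libraries 1, 2 and 3, 41.7%, 43.5% and 55.5% were multiples of 0.336, 0.315 and 0.281. For other step sizes the median share was 0.216% to 0.345%. The lowest rung used was 8 to 11 steps and the commonest 12 to 14. The other peaks of the lists are not described in this way, so the ladder is not shown to be particular to single-library regions.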
